A study of Homo sapiens with 32 samples.

Results

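The transcripts described here are those of 40 genes that act in mitosis and in the G2/M transition, the entry into mitosis after DNA replication. They were taken by name from a table of 25066 features, all 40 were found, and all 40 were among the 12000 features tested in each line. They cover 6 cyclins, cyclin-dependent kinase (CDK) regulators and phosphatases, 5 mitotic kinases and 5 spindle checkpoint genes. A further 3 were grouped under the anaphase-promoting complex and ubiquitin. The others are 6 kinesins, 7 centromere and chromosome genes, 6 spindle assembly genes and 2 cytokinesis genes.

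RNA was sequenced from TMD8 and DOHH2, both established human diffuse large B-cell lymphoma lines, TMD8 being of the activated B-cell type while DOHH2 is of the germinal centre B-cell type. Cells of either line, all engineered with Cas9 per the labels, received 500 nM CSKi, which blocks CSK (C-terminal Src kinase, a negative regulator of Src-family kinases), or the vehicle DMSO for 1, 3, 6 or 24 h. Each of the 16 groups of line, treatment and time had 2 libraries, 32 in all. The labels call the 2 libraries bio replicates without saying that they came from separate cultures, so the p-values measure the spread between these samples, which may be technical.

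In dividing cells, cyclin B with its CDK drives entry into mitosis, CDC25 phosphatases switch that kinase on, and the spindle checkpoint holds anaphase back until chromosomes are attached. The anaphase-promoting complex then destroys cyclins and lets the cell divide. Most of these genes are transcribed late in the cycle, so in a bulk culture their summed RNA follows how many cells are in G2 and mitosis, and more such cells cannot be told apart from more RNA per cell.

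Libraries held 12273442 to 24907030 mapped reads, and the member with the fewest reads was CDC25C in every library, with 159 to 639. Values are the deposited log2 normalised read counts, and a difference of 1 on this scale is a doubling. Differences are given ± the standard error of the model. A gene was called when the adjusted p of limma (Benjamini-Hochberg over 12000 features) was under 0.05, and "rose" and "fell" are used of called genes. In contrasts of CSKi with DMSO they mean higher or lower than DMSO at the same time. The immediate early gene EGR2, a transcription factor induced by growth signals, was used to check the inhibitor arm. Its CSKi minus DMSO log2 difference in TMD8 was -2.02, -4.51, -2.60 and -2.01 at 1, 3, 6 and 24 h, called at each time. In DOHH2 it was -2.61 at 1 h, called, and 0.02, 0.57 and 0.39 at 3, 6 and 24 h, not called, so the DOHH2 treatment labels after 1 h were not checked by this gene. All 6 B-cell markers were at log2 values of 10.8 or more in both lines. The 4 DOHH2 libraries at 24 h stood apart: over all features, the log2 differences between the library labelled CSKi replicate 2 and that labelled DMSO replicate 1 had an SD of 0.218, against 0.381 within the CSKi pair and 0.328 within the DMSO pair. No direction is drawn from those 4 libraries, and they were left out of the fit of the earlier DOHH2 times.

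Promoter sequence is shown first, because many late cell-cycle genes carry a short element near their start, the cell-cycle genes homology region (CHR), often with CCAAT boxes. RefSeq (GRCh38.p14) gave 250 bases before to 50 after the start for 34 of the 40 members. AURKA, BUB3, TTK, UBE2C, BIRC5 and TPX2 had no entry. The letters TTTGAA or TTCGAA, searched on both strands as the CHR, were in 25 of these 34 windows (73.5%), against 16.6% of 27305 RefSeq promoters. CCAAT, searched on both strands, was in 27 of 34 (79.4%), against 35.7% of all, and both motifs were in 22 (64.7%), against 6.58% of all. In MKI67 and CDCA8 a CHR match and a reversed CCAAT match share 1 base. Among 36 DNA replication and G1/S genes with an entry, 2 (5.56%) held the CHR letters, so these letters set the mitotic members apart from the replication genes by count.

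The last 100 bases before the start are printed for 6 members with the CHR letters, 5′ to 3′ on the coding strand with CHR and CCAAT letters of either strand in capitals. Their regions are chr16:23678789-23678888 (plus strand) for PLK1, chr15:59105046-59105145 (plus strand) for CCNB2, chr10:128126424-128126523 (minus strand) for MKI67, chr15:40160969-40161068 (plus strand) for BUB1B, chr1:37692416-37692515 (plus strand) for CDCA8 and chr5:163460532-163460631 (plus strand) for HMMR.
PLK1: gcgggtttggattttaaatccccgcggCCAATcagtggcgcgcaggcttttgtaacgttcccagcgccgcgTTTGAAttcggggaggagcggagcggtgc
CCNB2: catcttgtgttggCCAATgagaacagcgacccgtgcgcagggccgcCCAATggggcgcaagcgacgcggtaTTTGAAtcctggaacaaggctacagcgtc
MKI67: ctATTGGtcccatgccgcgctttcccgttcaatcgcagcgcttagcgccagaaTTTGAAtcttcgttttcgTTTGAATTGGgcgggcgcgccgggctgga
BUB1B: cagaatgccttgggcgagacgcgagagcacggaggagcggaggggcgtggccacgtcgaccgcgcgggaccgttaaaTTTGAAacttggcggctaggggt
CDCA8: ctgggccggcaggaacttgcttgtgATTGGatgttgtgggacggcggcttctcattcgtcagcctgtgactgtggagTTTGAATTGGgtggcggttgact
HMMR: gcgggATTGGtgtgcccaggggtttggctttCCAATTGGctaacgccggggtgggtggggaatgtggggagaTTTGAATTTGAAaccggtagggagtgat
In PLK1 the CHR letters lie 29 to 24 bases before the start, and HMMR and MKI67 each hold them at 2 places.

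The other 4 are CCNB1, with 2 CCAAT boxes and no CHR letters as searched here, and the 3 members that were not lower after 24 h of CSKi in TMD8 by the test below, NEK2, CDC25B and CDC25C. Their regions are chr5:69167050-69167149 (plus strand) for CCNB1, chr1:211675622-211675721 (minus strand) for NEK2, chr20:3786851-3786950 (plus strand) for CDC25B and chr5:138338356-138338455 (minus strand) for CDC25C.
CCNB1: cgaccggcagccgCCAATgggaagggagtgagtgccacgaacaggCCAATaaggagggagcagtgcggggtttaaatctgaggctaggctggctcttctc
NEK2: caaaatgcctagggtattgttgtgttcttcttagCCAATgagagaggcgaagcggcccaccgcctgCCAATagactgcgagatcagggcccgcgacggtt
CDC25B: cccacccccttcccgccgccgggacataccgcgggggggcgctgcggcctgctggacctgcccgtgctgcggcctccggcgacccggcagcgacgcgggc
CDC25C: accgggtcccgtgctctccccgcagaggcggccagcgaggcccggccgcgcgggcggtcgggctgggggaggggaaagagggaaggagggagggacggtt
None of these 4 windows holds the CHR letters as searched, and those of CDC25B and CDC25C hold no CCAAT either. A match of letters is a description and not a binding site. Other starts of the same gene were not searched, so these windows do not show that CDC25B or CDC25C lacks either motif.

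In TMD8, 37 of the 40 members fell with CSKi against DMSO at 24 h. Of the 12000 features, 26.2% fell and 27.9% rose. No member rose. The median log2 difference of the members was -0.35, from -0.62 (MAD2L1) to 0.14 (CDC25B), against a median of 0.015 over all features. Both CSKi libraries lay below both DMSO libraries for 37 members, a pattern that 35% of all features showed. These were the same 37 that were called, so this is no separate support. The 24 h fall followed a small early difference the other way, with 6 members risen at 3 h and 15 at 6 h. By the median of the 40, both arms at 24 h lay above DMSO at 1 h. The CSKi libraries were 0.12 and 0.27 above it, and the DMSO libraries 0.52 and 0.54. The fall is thus a gap to the vehicle of the same time.

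**Figure D1:**
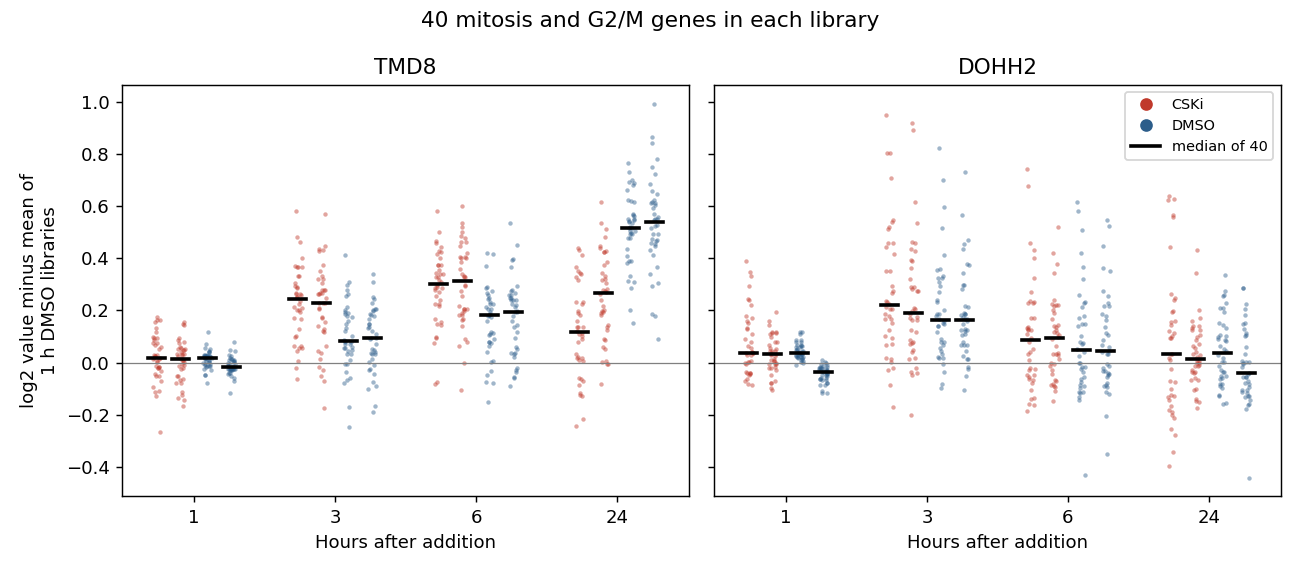
Each dot is 1 of the 40 members in 1 library, as its log2 value minus the mean of the line's DMSO libraries at 1 h; pairs of columns are replicates 1 and 2, and bars are medians. In TMD8 the medians of the CSKi libraries at 24 h are 0.12 and 0.27, below the 0.52 and 0.54 of the DMSO libraries, while in DOHH2 at 24 h all 4 medians lie between -0.04 and 0.04.

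Among the cyclins, CCNB1, the regulatory partner of the mitotic kinase CDK1, had log2 values of 12.09 and 12.14 in TMD8 CSKi libraries at 24 h, against 12.58 and 12.48 in DMSO libraries. CCNA2, the cyclin of S and G2 phase, had 10.75 and 10.96 with CSKi and 11.40 and 11.49 with DMSO. The groups did not overlap for either gene, and the fall was -0.42 ± 0.04 (adjusted p = 5.83e-09) for CCNB1 and -0.59 ± 0.06 (adjusted p = 3.91e-09) for CCNA2, 1.34-fold and 1.51-fold lower (n = 2 libraries each). CCNB2, a second B-type cyclin, fell less, by 0.17 ± 0.05, and the CDK-binding protein CKS2 fell by 0.29 ± 0.05. The activating phosphatases were not called, and their library values and those of NEK2 are given because they stood out once the values were seen. CDC25B had 10.77 and 10.82 with CSKi and 10.69 and 10.63 with DMSO, both CSKi libraries higher, at 0.14 ± 0.07 and adjusted p = 0.0909, and CDC25C differed by 0.02 ± 0.11 with overlapping libraries.

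Of the mitotic kinases, 4 of 5 fell. PLK1, which acts from mitotic entry to cytokinesis, had 12.15 and 12.02 in TMD8 CSKi libraries at 24 h and 12.46 and 12.43 in DMSO libraries. It fell by 0.35 ± 0.05, a drop of 1.28-fold. PLK4, the kinase that starts centriole duplication, fell by 0.50 ± 0.07, AURKA of the spindle poles by 0.34 ± 0.05, and AURKB of the chromosomal passenger complex by 0.30 ± 0.05. NEK2, which splits the centrosomes, had 9.93 and 10.12 with CSKi and 10.25 and 10.10 with DMSO, an overlap, and its difference of -0.15 ± 0.08 was not called (adjusted p = 0.0864).

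All 5 spindle checkpoint genes fell. MAD2L1, the checkpoint protein that binds CDC20, had the largest fall of the 40, with 10.43 and 10.56 in TMD8 CSKi libraries at 24 h and 11.17 and 11.05 in DMSO libraries. These CSKi values overlapped the 10.62 and 10.50 of the DMSO libraries at 1 h, while the arms did not overlap at 24 h. The difference was -0.62 ± 0.06 (adjusted p = 2.64e-09), 1.53-fold lower. BUB3, which carries BUB1 and BUBR1 to kinetochores, had 11.81 and 11.85 with CSKi and 12.14 and 12.24 with DMSO, a fall of 0.36 ± 0.05 with no overlap. The checkpoint kinases TTK and BUB1 fell by 0.43 ± 0.08 and 0.35 ± 0.05, and BUB1B, which encodes BUBR1, by 0.29 ± 0.05.

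Every member of the remaining roles also fell. UBE2C, the ubiquitin-conjugating enzyme of the anaphase-promoting complex, had 11.27 and 11.25 in TMD8 CSKi libraries at 24 h and 11.73 and 11.69 in DMSO libraries, a difference of -0.45 ± 0.05. CDC20, the activator of that complex, fell by 0.36 ± 0.04 and CDCA3 by 0.26 ± 0.08. Of 14 genes for the subunits of the complex and its activator FZR1, 3 fell and 2 rose, no larger a share in either direction than the 26.2% and 27.9% of all features. Kinesins fell by 0.16 (KIF20A) to 0.45 (KIF11, the motor that pushes spindle poles apart).

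Among chromosome genes, the DNA topoisomerase TOP2A fell least of the called members. Its log2 values were 13.60 and 13.79 in TMD8 CSKi libraries at 24 h and 13.81 and 13.87 in DMSO libraries, close but not overlapping, at -0.14 ± 0.04 (adjusted p = 0.00661). MKI67, which encodes the proliferation antigen Ki-67, had 13.78 and 13.86 with CSKi and 13.97 and 14.06 with DMSO, a fall of 0.19 ± 0.04. The kinetochore motor CENPE fell by 0.52 ± 0.11 and BIRC5 and CDCA8 of the chromosomal passenger complex by 0.44 ± 0.07 and 0.43 ± 0.06. Spindle assembly genes fell by 0.22 (PRC1, which bundles the midzone) to 0.56 (ASPM, a spindle pole protein), and the cytokinesis genes ECT2, a RhoA activator, and ANLN, a scaffold of the contractile ring, fell by 0.53 ± 0.09 and 0.34 ± 0.06.

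Members with the CHR letters had a median difference of -0.35 at this time (n = 25, from -0.62 to -0.14), and those with a window but no CHR letters -0.23 (n = 9, from -0.59 to 0.14). The 3 uncalled members were all among the 9, as were the strongly lower CCNA2 and CCNB1, and these medians are a description with no test. Only TTTGAA and TTCGAA were searched, so a window without them is not shown to lack a CHR. Other starts of the same gene were not searched either, so members such as CDC25C may be placed differently by another start.

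Leaving out any 1 of the 4 libraries at 24 h left 34 to 36 members fallen. KIF20B (-0.19) and TOP2A (-0.05) were not called without CSKi replicate 1, CDCA3 (-0.18) and KIF20A (-0.14) without CSKi replicate 2, CCNB2 (-0.15), CDCA3 (-0.18) and KIF20A (-0.12) without DMSO replicate 1, and CENPA (-0.26) and TOP2A (-0.12) without DMSO replicate 2. Across members the 24 h difference ran with the GC content of the transcript (Spearman rho 0.47 over 40 genes that share libraries, 0.26 over all features with a value), and 34 members fell after a correction for GC content and length. The 5 fibroblast and epithelial markers moved with the same contrast: their summed reads were 51.2 and 46.7 RPM (reads scaled to library depth by mapped reads) in CSKi libraries and 19.9 and 19.0 in DMSO libraries, with 2 of the 5 at 0 reads in each, and 2 of the 3 that were tested rose. The 6 B-cell markers summed to 4800 and 4980 RPM with CSKi and 3650 and 3700 with DMSO, and 5 of 6 rose. The 5 T and NK cell markers summed to 3.21 and 2.92 with CSKi and 2.01 and 2.94 with DMSO, with CD3D at 0 in every TMD8 library, and the 5 myeloid markers to 0.489 and 0.642 with CSKi and 0.347 and 0.337 with DMSO. Their part in the result was not tested.

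**Figure D2:**
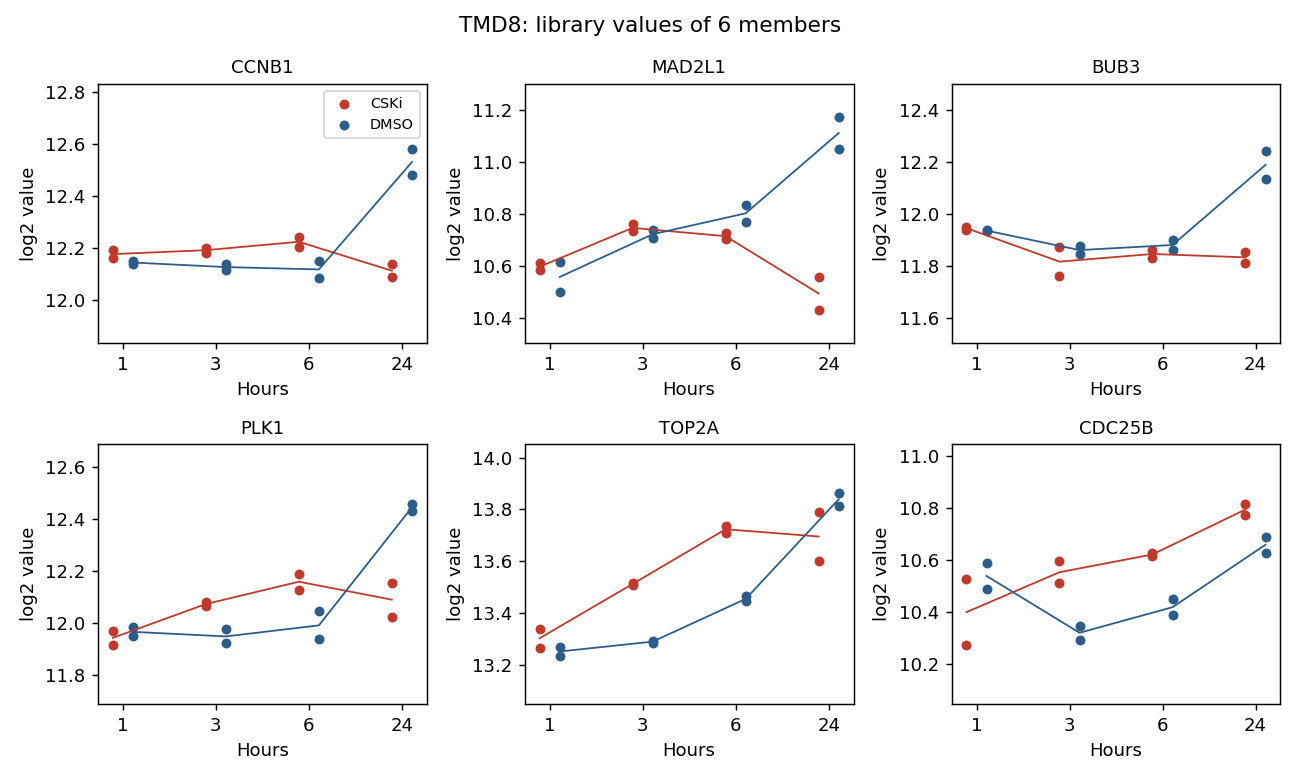
Log2 values of 6 members in the 16 TMD8 libraries by hours of treatment, CSKi left of DMSO at each time, dots for libraries and lines through group means. CCNB1, MAD2L1, BUB3 and PLK1 separate at 24 h with CSKi below DMSO, TOP2A lies above DMSO at 3 and 6 h and below it at 24 h, and both CDC25B libraries with CSKi lie above DMSO at 3, 6 and 24 h. Hours are evenly spaced on the axis.

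Between 6 and 24 h the arms of TMD8 moved in opposite directions by their medians. At 24 h against 6 h, 36 of 40 members rose with DMSO (median 0.37), where 20.6% of features rose and 20.9% fell. With CSKi over the same hours, 17 members fell and 3 rose (median -0.13), where 25.4% of features fell and 23.4% rose. The 3 that rose with CSKi were CKS2 (0.18 ± 0.05), CDC25B (0.17 ± 0.07) and MKI67 (0.15 ± 0.04). With libraries scaled to total mapped reads, or with voom on recovered reads, none of the 40 rose and 22 fell. On the deposited scale the lowest were BIRC5 (-0.43 ± 0.07), ECT2 (-0.32 ± 0.09), KIF11 (-0.30 ± 0.07), KIF20B (-0.30 ± 0.11) and AURKA (-0.29 ± 0.05). The CSKi count was 9, 10 and 10 without CSKi replicate 1 at 6 h, CSKi replicate 2 at 6 h and CSKi replicate 1 at 24 h.

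These 2 comparisons share their libraries with the CSKi contrasts at 6 and 24 h. The test of the difference between those contrasts gave 38 of 40 members lower at 24 h than at 6 h, where 14.1% of features were lower and 15.4% higher, and none higher. The median difference of responses was -0.47. CCNB1 (-0.52 ± 0.06, adjusted p = 2.18e-07), UBE2C (-0.56 ± 0.06) and BUB1 (-0.61 ± 0.07) had the smallest p. CDC25B and CDC25C were not called. Against 1 h, the 24 h response was lower for 36 members, where 20.2% of features were lower, and higher for CDC25B (0.28 ± 0.10), where 21.7% were higher. That single higher call was lost with no filter on low values, at adjusted p under 0.01, with total-read scaling (0.24), without the trend, after the GC content and length correction (0.12) and with only the libraries compared, and without CSKi replicate 1 at 1 h (0.15), DMSO replicate 2 at 1 h (0.23) or DMSO replicate 2 at 24 h (0.24).

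At 1 h no member was called between CSKi and DMSO in TMD8, where 6 of 12000 features (0.05%) were, although CDC25B, KIF4A and CDCA3 had the smallest p among the members. CDC25B had 10.27 and 10.53 in CSKi libraries and 10.49 and 10.59 in DMSO libraries, which overlap. At 3 h, 6 members rose and none fell, where 1.48% of features rose and 3.26% fell. They were TOP2A, CENPF, KIF20A, NEK2, CDC25B and TTK, and both CSKi libraries lay above both DMSO libraries for 31 of the 40, as for 27.8% of features. TOP2A had 13.51 and 13.52 with CSKi and 13.29 and 13.29 with DMSO, 0.22 ± 0.04 (adjusted p = 0.00153). CENPF, a kinetochore protein that accumulates in G2, had 12.16 and 12.12 with CSKi and 11.94 and 11.95 with DMSO, 0.20 ± 0.05. KIF20A, a cytokinesis motor, had 10.86 and 10.83 with CSKi and 10.66 and 10.58 with DMSO, 0.23 ± 0.06. In all 3 the duplicates were closer to each other than to either library of the other arm. All 3 were named as called in this contrast, so this is no separate support.

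At 6 h, 15 members rose and none fell, where 5.67% of features rose and 6.98% fell. Their log2 differences ran from 0.14 (AURKA) to 0.33 (BIRC5), a fold of at most 1.25, and the median of all 40 was 0.15. TOP2A was again first by p, with 13.71 and 13.74 in CSKi libraries and 13.45 and 13.47 in DMSO libraries, 0.27 ± 0.04 (adjusted p = 7.38e-05). KIF20A had 10.72 and 10.78 with CSKi and 10.47 and 10.44 with DMSO, 0.30 ± 0.06, and BUB1 had 11.94 and 11.92 with CSKi and 11.62 and 11.70 with DMSO, 0.26 ± 0.05. PLK1, with 12.19 and 12.13 against 12.04 and 11.94 in DMSO libraries, rose by 0.17 ± 0.05. The others that rose were CCNB2, CDC25B, NEK2, BUB1B, KIF2C, KIF4A, CENPF, NUSAP1 and PRC1, so every role but the ubiquitin and cytokinesis genes had at least 1 member. BUB3 was not called, with 11.862 and 11.832 with CSKi, narrowly below the 11.863 and 11.900 with DMSO. CCNB1 was not called either, with 12.24 and 12.21 against 12.15 and 12.09 in DMSO libraries.

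The response at 6 h minus that at 1 h was positive and called for 6 members (NEK2, CDC25B, KIF20A, BUB1, TOP2A and BIRC5), where 2.49% of features were higher and 3.41% lower. At 3 h minus 1 h it was called for CDC25B alone (0.37 ± 0.10), where 0.417% of features were called in that direction. These early calls were few and small: leaving out any 1 of the 4 libraries compared left 1 or 2 of the 6 at 3 h, and 5, 8 and 7 of the 15 at 6 h without CSKi replicate 1, DMSO replicate 1 and DMSO replicate 2. At 3 h the members' differences ran against GC content (Spearman rho -0.42, n = 40), and after the GC content and length correction 12 members rose.

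**Figure D3:**
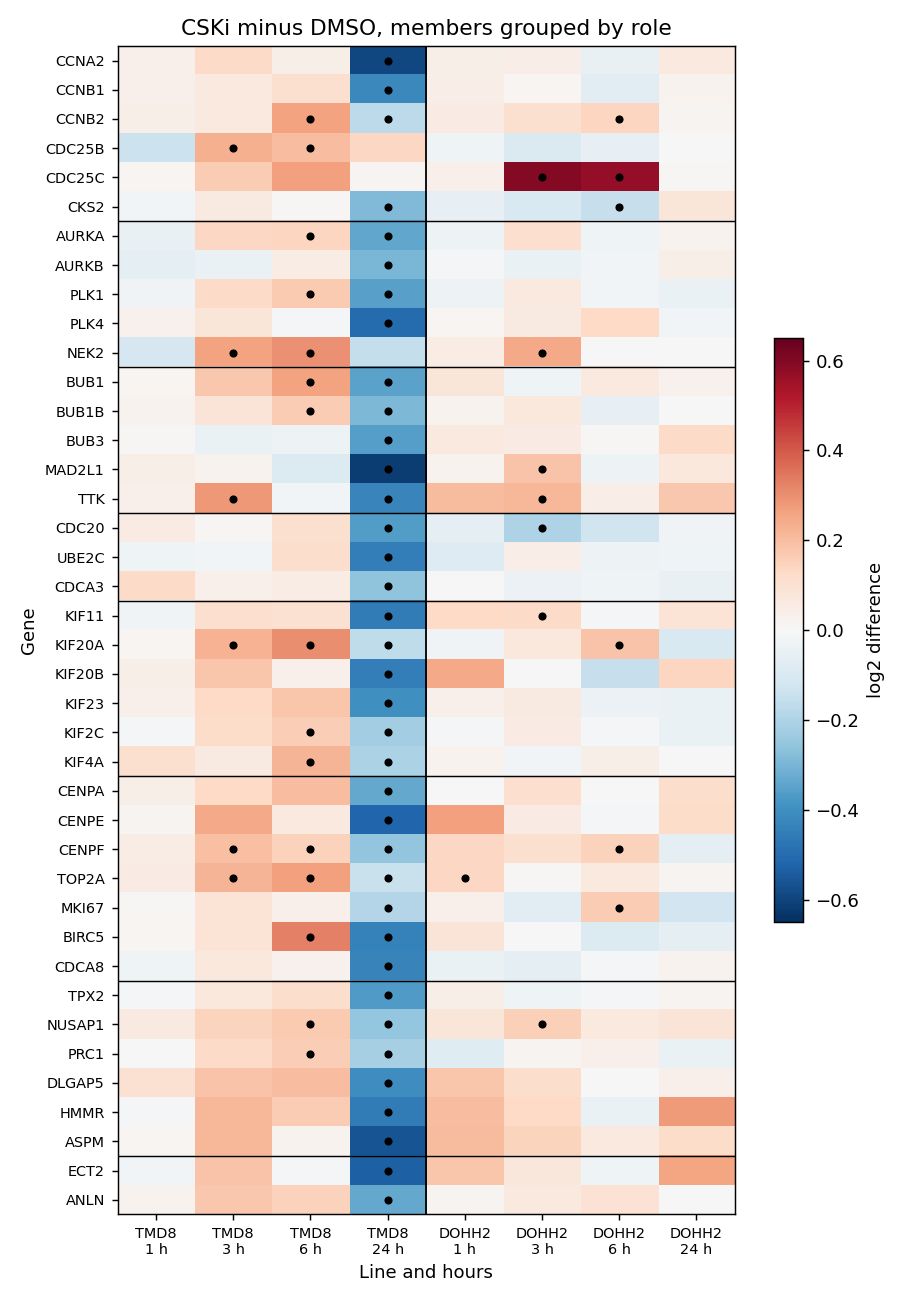
CSKi minus DMSO log2 difference of each of the 40 members (rows, grouped by role) at each time in both lines (columns); red is higher with CSKi, blue lower, and a dot marks a called difference. The TMD8 24 h column holds 37 called lower values, the TMD8 6 h column 15 called higher ones, and the largest positive values are those of CDC25C in DOHH2 at 3 and 6 h.

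In DOHH2, 1, 7 and 6 of the 40 members were called at 1, 3 and 6 h, and none at 24 h. Most of those called were higher with CSKi. Of all features, 7.28% rose and 7.27% fell at 3 h, and 6.96% rose and 6.67% fell at 6 h. The small member counts at 3 and 6 h therefore do not show a weaker response than that of all features. The median difference of the 40 was 0.03, 0.05 and -0.01 at 1, 3 and 6 h. At 1 h, 1 member rose, TOP2A, where 0.825% of features rose and 1.23% fell. TOP2A had 14.23 and 14.16 in CSKi libraries and 14.08 and 14.04 in DMSO libraries, without overlap, 0.14 ± 0.03 (adjusted p = 0.0132). CENPF and CENPE had the next smallest p, and CENPE had 11.21 and 10.97 with CSKi and 10.86 and 10.79 with DMSO. At this time the members ran along GC content, with rho = -0.74 across the 40 (-0.36 over all features with a value), and the highest differences were those of CENPE (0.27 ± 0.08, 35.3% GC) and KIF20B (0.24 ± 0.09, 34.2% GC), neither called. After the GC content and length correction no member was called at 1 h, and none was without CSKi replicate 1 or DMSO replicate 2, while 3 were without CSKi replicate 2.

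**Figure D4:**
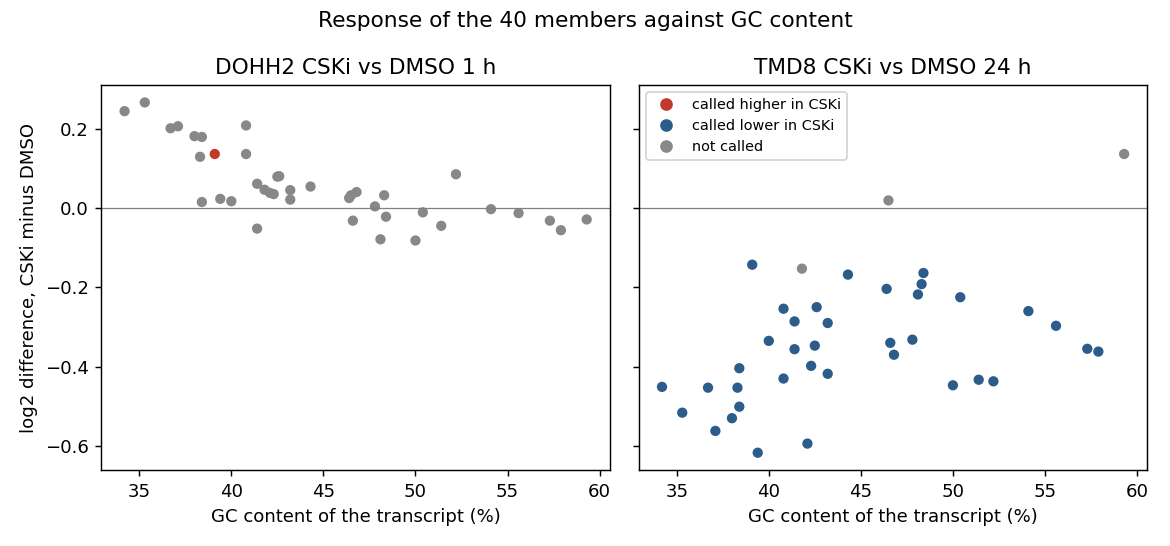
CSKi minus DMSO log2 difference of the 40 members against the GC content of their transcripts (%), for DOHH2 at 1 h on the left and TMD8 at 24 h on the right; colours mark called differences. Across members rho is -0.74 on the left, where 1 gene is called, and 0.47 on the right, where 37 are called lower.

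At 3 h, 6 members rose and 1 fell in DOHH2, where 7.28% of features rose and 7.27% fell. CDC25C, the phosphatase that activates cyclin B with CDK1 at mitotic entry, was far ahead of the rest. It had 9.69 and 9.81 in CSKi libraries (513 and 639 reads), against 9.12 and 9.19 in DMSO libraries (414 and 406 reads), 0.59 ± 0.08 or 1.51-fold higher (adjusted p = 1.03e-05). NEK2 had 10.18 and 10.30 with CSKi and 9.98 and 10.00 with DMSO, 0.25 ± 0.06. The others that rose were TTK, MAD2L1, NUSAP1 and KIF11, by 0.13 to 0.22. With total-read scaling or quantile normalization, 4 rose and 2 fell. CDC20 fell, with 12.05 and 11.98 in CSKi libraries and 12.22 in both DMSO libraries, -0.20 ± 0.04 (adjusted p = 0.00189). PLK1 (12.48 and 12.42 with CSKi, 12.41 and 12.37 with DMSO) and BUB3 were not called. CCNB1 was called at no time and lay between 12.35 and 12.54 in all 16 DOHH2 libraries.

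At 6 h, 5 members rose and 1 fell, where 6.96% of features rose and 6.67% fell. CDC25C had 9.06 and 9.08 in CSKi libraries and 8.46 and 8.54 in DMSO libraries, 0.57 ± 0.08 (adjusted p = 1.71e-05). MKI67 had 14.24 and 14.20 with CSKi and 14.09 and 14.03 with DMSO, 0.16 ± 0.04, and CENPF had 13.21 and 13.18 with CSKi and 13.09 and 13.00 with DMSO, 0.15 ± 0.04. These libraries did not overlap for any of the 3, which is no separate support since all 3 were called in this contrast. CCNB2 and KIF20A rose by 0.14 and 0.19, and CKS2 fell by 0.15 ± 0.04. With total-read scaling 5 rose and 2 fell. CDC25C was the only member called at both 3 and 6 h. With the 24 h libraries kept in the fit, the DOHH2 counts were 0 at 1 h, 1 at 3 h (CDC25C, adjusted p = 0.0334) and 0 at 6 h (CDC25C, adjusted p = 0.0668). In every other alternative run, CDC25C was called at both times. Without CSKi replicate 1, DMSO replicate 1 or DMSO replicate 2 at 3 h, 3 members were called there, and without DMSO replicate 2 at 6 h, 3 were called at 6 h.

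At 24 h no DOHH2 member was called, nor any of the 12000 features (0%). The smallest p among the members were those of ECT2, BUB3 and HMMR, and HMMR, which encodes a spindle and hyaluronan-binding protein, had 11.74 and 11.14 in the libraries labelled CSKi and 11.14 and 11.18 in those labelled DMSO. The values of the CDC25 phosphatases, picked after they were seen, spread as widely within a label as between labels. CDC25B had 12.01 and 12.69 in the libraries labelled CSKi and 12.60 and 12.10 in those labelled DMSO. CDC25C had 8.49 and 8.85 in those labelled CSKi and 8.88 and 8.45 in those labelled DMSO. Without the library labelled CSKi replicate 2, 8 members passed the threshold. Medians of the 40 relative to the 1 h vehicle were 0.03 and 0.01 (CSKi labels) and 0.04 and -0.04 (DMSO labels), so the members had nearly the same median in all 4 libraries, and whether CSKi changes them at 24 h in DOHH2 cannot be read from these labels.

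**Figure D5:**
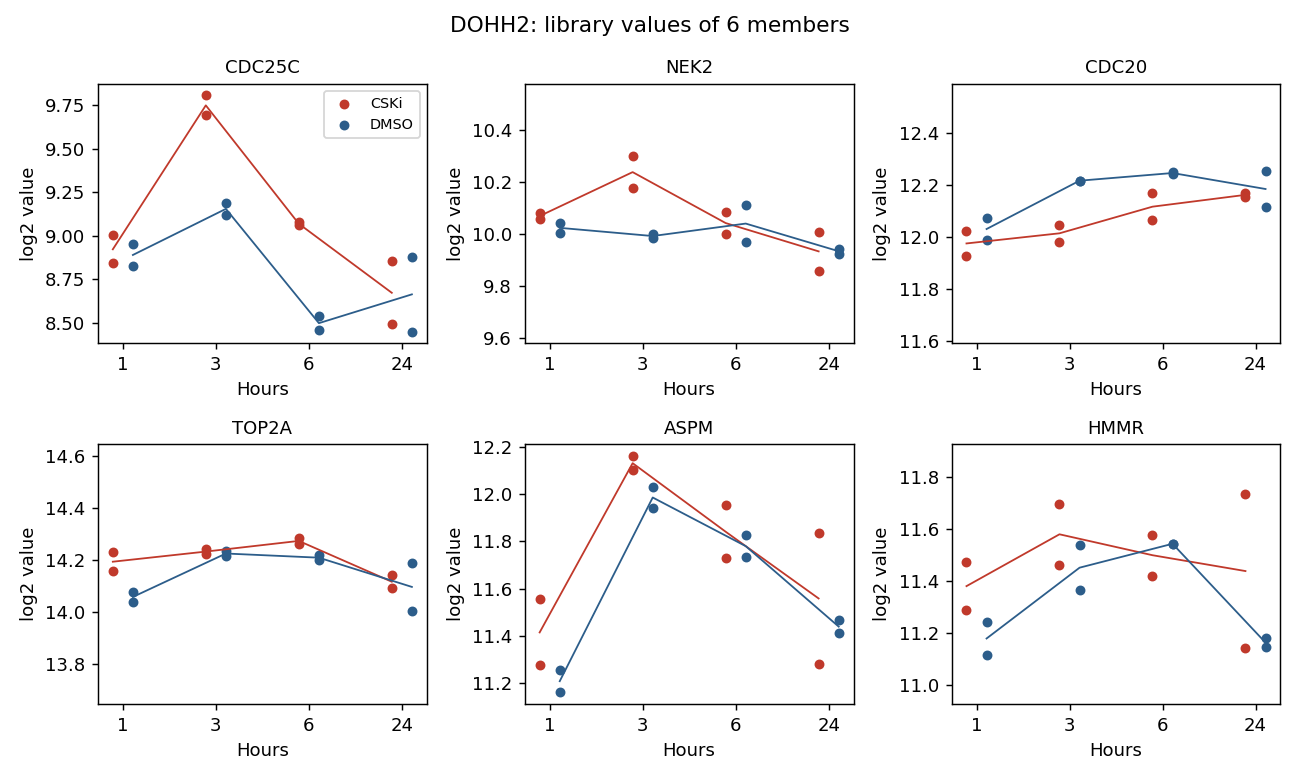
Log2 values of 6 members in the 16 DOHH2 libraries by hours of treatment, CSKi left of DMSO, dots for libraries and lines through group means. CDC25C stands above DMSO at 3 and 6 h, CDC20 below DMSO at 3 h, ASPM is higher at 3 h than at 1 h in both arms, and at 24 h the libraries labelled CSKi lie far apart for CDC25C, ASPM and HMMR. Hours are evenly spaced on the axis.

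The test of the difference between lines gave no member at 1 h, where 0.45% of features were called. At 3 h the response was higher in TMD8 for 3 members, CDC25B (0.33 ± 0.08), TOP2A (0.21 ± 0.06) and CDC20 (0.21 ± 0.06), where 2.18% of features were higher. At 6 h it was higher in TMD8 for 4, BIRC5 (0.42 ± 0.08, adjusted p = 0.00192), CDC20 (0.23 ± 0.06), BUB1B (0.22 ± 0.06) and TOP2A (0.20 ± 0.06), where 2.52% were. No member was called lower in TMD8 at 3 or 6 h, where 2.64% and 3.46% of features were, and the difference between lines for CDC25C, -0.43 ± 0.14 at 3 h, was not called (adjusted p = 0.0787). Leaving out 1 library left 0 or 1 of the 3 members at 3 h and 1 to 3 of the 4 at 6 h, depending on the library.

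The vehicle arms changed with time in culture. In TMD8, 38 of the 40 members rose at 24 h against 1 h of DMSO, where 22.8% of features rose and 23.9% fell, and all 40 had both 24 h libraries above both 1 h libraries, as 35.9% of features did. The median rise was 0.55, from 0.12 (CDC25B, not called) to 0.88 (ASPM). MKI67 had 13.97 and 14.06 at 24 h and 13.43 and 13.40 at 1 h, 0.60 ± 0.04 (adjusted p = 1.95e-11). NUSAP1, a microtubule-bundling protein, had 12.19 and 12.19 at 24 h and 11.56 and 11.58 at 1 h, 0.62 ± 0.04, and PRC1 had 12.17 and 12.15 at 24 h and 11.60 and 11.60 at 1 h, 0.56 ± 0.04. CDC25C (0.24 ± 0.11) was the other member not called. The DMSO libraries at 24 h serve both this comparison and the 24 h CSKi contrast. Side by side, MAD2L1 was 0.55 in the vehicle rise and -0.62 in the CSKi contrast, CCNB1 0.39 and -0.42, PLK1 0.48 and -0.35, and TOP2A 0.59 and -0.14.

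The rise was graded. At 3 h against 1 h of DMSO in TMD8, 7 members rose and 1 fell (CDC25B, -0.22 ± 0.07), where 9.68% of features rose and 9.68% fell. AURKA (0.21 ± 0.05), CENPA (0.38 ± 0.09), the centromeric histone, and KIF23 (0.27 ± 0.07) had the smallest p. The 3 h count was 3 without DMSO replicate 2 at 1 h or DMSO replicate 1 at 3 h. At 6 h against 1 h, 19 rose and none fell, where 11.2% of features rose and 12.4% fell, led by p by NUSAP1 (0.25 ± 0.04), MKI67 (0.23 ± 0.04) and BUB1B (0.25 ± 0.05), and 12 rose without DMSO replicate 2 at 6 h. CCNB1 and PLK1 were level over those hours (-0.03 ± 0.04 and 0.02 ± 0.05 at 6 h, not called), and of the DMSO libraries only those of 24 h stood above the rest for both.

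In DOHH2 vehicle cells more members rose at 3 h than at 6 h, each against 1 h, and 6 h was not tested against 3 h. At 3 h against 1 h, 26 members rose and none fell, where 16.5% of features rose and 17.3% fell. ASPM had 12.03 and 11.94 at 3 h and 11.26 and 11.16 at 1 h, 0.78 ± 0.07 (adjusted p = 4.76e-09), AURKA had 11.54 and 11.58 at 3 h and 11.20 and 11.05 at 1 h, 0.43 ± 0.05, and BUB1B rose by 0.35 ± 0.04. At 6 h against 1 h, 15 rose and 4 fell, where 20.3% rose and 23.4% fell, and the median of the 40 was 0.03. This balance depended on the scaling: 14 rose and 9 fell with libraries centred on their median (median -0.01), 18 rose and 2 fell with total-read scaling or quantile normalization, and 11 rose and 7 fell after the GC content and length correction. ASPM (0.57 ± 0.07), CENPE (0.56 ± 0.08) and CKS2 (0.27 ± 0.04) rose, while CDC25C (-0.39 ± 0.08), MKI67 (-0.17 ± 0.04), KIF2C and CDCA8 fell. The 3 h count was 14 without DMSO replicate 2 at 1 h and 17 without DMSO replicate 1 at 3 h. Differences between the members followed GC content here too, with rho -0.42 at 3 h and -0.47 at 6 h.

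Vehicle cells of the lines also differed in level. Over 1 to 6 h of DMSO, 38 of the 40 members were lower in TMD8 than in DOHH2 and 1 was higher, KIF20B (0.17 ± 0.08), where 45.6% of features were lower and 43.8% higher. KIF20B was not called over 15000 features, with no filter, at adjusted p under 0.01, with total-read scaling, without the trend, with the DOHH2 24 h libraries fitted, or in 8 of the 12 fits that left out 1 library. The median was -0.68. CDCA8 of the passenger complex had the lowest value (-2.03 ± 0.03), at 10.16 and 10.21 in TMD8 and 12.35 and 12.35 in DOHH2 at 1 h. CDC25B (-1.78 ± 0.03) and the chromokinesin KIF4A (-1.68 ± 0.03) were also far lower. TTK (0.05 ± 0.05) was not called, and the smallest called gaps below DOHH2 were those of AURKA (-0.08 ± 0.03) and NEK2 (-0.14 ± 0.04).

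Other genes of the cycle, from lists made with earlier results of these data known, gave the setting. Of all features, 26.2% fell and 27.9% rose after 24 h of CSKi in TMD8, and 5.67% rose and 6.98% fell at 6 h. Of 60 further mitosis and G2/M genes tested, 53 fell and none rose after 24 h of CSKi in TMD8 (median -0.37), with ARHGAP11A (-0.74 ± 0.05), ZWINT of the kinetochore (-0.47 ± 0.04), UBE2S (-0.43 ± 0.04) and CDCA5 (-0.54 ± 0.05) first by p. At 6 h, 7 of the 60 rose, among them the condensin subunit NCAPD2 (0.18 ± 0.04) and FOXM1 (0.16 ± 0.05), a transcription factor of G2/M genes. Of 43 DNA replication and G1/S genes, 40 fell at 24 h (median -0.54), such as PCNA, the sliding clamp of replication (-0.66 ± 0.04), MCM4 of the replicative helicase (-0.62 ± 0.04) and RRM2 of ribonucleotide reductase (-0.73 ± 0.04). With CSKi at 24 h against 6 h, 37 of these 43 fell and none rose (median -0.40), where 25.4% of features fell, beside the 17 of 40 mitotic members. Of 8 CDK inhibitor and quiescence genes, 5 rose at 24 h, including BTG1 (0.79 ± 0.05) and BTG2 (0.74 ± 0.03), both anti-proliferative factors, CCNG2 (0.59 ± 0.12) and the CDK inhibitor CDKN1A (0.22 ± 0.05). Of 11 components of the DREAM and MuvB complexes, which act on CHR promoters, 5 fell and 1 rose, with TFDP1 at -0.52 ± 0.04 and RBL2 at 0.33 ± 0.05.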

How the data were processed

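RNA-seq libraries (32, polyadenylated RNA, stranded and paired-end per the labels) were deposited by the authors as 1 table of log2 values per gene with a row of total mapped reads. Counting used HTSeq and the build was hg19, per the submitters' processing notes, while no aligner or scaling factor is named in the notes or headers used here. The deposited log2 values held whole reads: within 0.1 reads, 99.1 to 100% of values up to 300 reads came out whole. Mapped reads per library were 12273442 to 24907030.

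The members and all gene lists were chosen with earlier results of these data known. Groups were compared with limma 3.58.1 (lmFit, eBayes with trend, R 4.3.3) on the deposited log2 values, with no pseudocount added, over the 12000 features of highest mean, whose lowest mean was 20.6 reads in TMD8, 15.7 in DOHH2 and 16.2 over both lines. Tests were two-sided and adjusted by Benjamini-Hochberg over all 12000. TMD8 was fitted with 16 libraries (8 residual degrees of freedom), DOHH2 with those of 1 to 6 h (6), both lines with 28 (14), and the DOHH2 24 h contrast with all 16 of that line (8). The script was tested on simulated data. Library values are given for CCNB1, PLK1, MKI67, TOP2A, BUB3 and up to 3 further members of smallest p in a contrast, and for any other member the text says that it was picked after its values were seen. As alternatives, the filter on low values, the call threshold, the scaling and the variance model were changed, an offset of 16 or a replicate block was added, other sets of libraries were fitted and each library was left out in turn, and, added after seeing the data, a correction for GC content and length. The labels do not say whether replicate numbers pair samples, and the main fits did not pair them. Promoter windows came from RefSeq (GRCh38.p14) and were matched by gene symbol, with only the first listed start of each gene used. Python 3.11.15, pandas 2.3.3 and matplotlib 3.10.9 were used.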

Additional observations from a re-analysis of the deposited data

Results flagged for a closer look

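The CSKi minus DMSO difference of members changed with time in TMD8, by the limma test of the difference between times. At 3 h minus 1 h, 1 member was called, CDC25B (0.372), where 0.417% of features were higher. At 6 h minus 1 h, 6 were called higher, led by NEK2 (0.407), CDC25B (0.342) and KIF20A (0.289), where 2.49% of features were higher. At 24 h minus 1 h, 37 were called, 36 of them lower, led by MAD2L1 (-0.657), CCNB1 (-0.45) and CCNA2 (-0.624). There 20.2% of features were lower and 21.7% higher. At 24 h minus 6 h, 38 were called lower, led by CCNB1 (-0.524), UBE2C (-0.561) and BUB1 (-0.611), where 14.1% of features were lower.

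Between the lines the difference was called for few members. TMD8 minus DOHH2, 3 members were called higher at 3 h, CDC25B (0.327), TOP2A (0.214) and CDC20 (0.209), where 2.18% of features were higher. At 6 h, 4 were called higher, led by BIRC5 (0.415), CDC20 (0.234) and TOP2A (0.204), where 2.52% of features were higher. No member was called lower at 3 or 6 h, where 2.64% and 3.46% of features were. All values are log2 differences of differences.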

How the results depend on the processing

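The fall of 37 members in TMD8 at 24 h of CSKi stayed within 1.5 times its count in every alternative run, with a median between -0.39 and -0.27, and so did the vehicle counts at 24 h. Smaller counts moved, and the cause was not tested. With no filter on low values, members called were 3 in TMD8 at 3 h of CSKi, 0, 4 and 2 in DOHH2 at 1, 3 and 6 h, 5 for the TMD8 vehicle at 3 h against 1 h, 13 for TMD8 CSKi at 24 h against 6 h, 0 for the TMD8 responses at 3 h and at 6 h minus 1 h, and 0 and 2 for the line difference at 3 and 6 h. At adjusted p under 0.01 these were 1 in TMD8 at 3 h and 9 at 6 h, 0, 3 and 3 in DOHH2, 11 for CSKi at 24 h against 6 h, 0 and 0 for the responses, and 0 and 1 between lines. Without the trend they were 0 and 9 in TMD8, 0, 2 and 1 in DOHH2, 4 for the TMD8 vehicle at 3 h, 17 for the DOHH2 vehicle at 3 h, 11 for CSKi at 24 h against 6 h, 0 and 0 for the responses, and 0 and 1 between lines. With libraries centred on their median they were 3 in TMD8 at 3 h, 0 for the 3 h response and 2 between lines at 6 h. After the GC content and length correction they were 12 in TMD8 at 3 h, 0 in DOHH2 at 1 h, 14 for the TMD8 vehicle at 3 h, 3 for the 3 h response, and 5 and 12 between lines. With only the libraries compared they were 19 in TMD8 at 3 h, 5 in DOHH2 at 1 h, 15 for the TMD8 vehicle at 3 h, 9 for CSKi at 24 h against 6 h and 3 for the 3 h response. With the DOHH2 24 h libraries fitted they were 0, 1 and 0 in DOHH2, 11 and 7 for its vehicle at 3 and 6 h, and 0 and 1 between lines. Between lines at 6 h the count was 2 over 15000 features and 8 with voom on recovered reads. After the GC content and length correction, 3 differences that were called in the main fit turned sign, to near-zero values. CCNB1 in CSKi at 24 h against 6 h came to 0.018. CKS2 in the response at 24 h minus 1 h came to 0.008, and NEK2 between lines in DMSO to 0.014.

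Leaving out 1 library gave 0 members in TMD8 at 1 h of CSKi, 1 to 2 at 3 h, 5 to 10 at 6 h and 34 to 36 at 24 h. In DOHH2 it gave 0 to 3 at 1 h, 3 to 7 at 3 h, 3 to 5 at 6 h and 0 to 8 at 24 h. The TMD8 vehicle gave 3 to 6 at 3 h, 12 to 16 at 6 h and 37 to 38 at 24 h against 1 h, and 29 to 35 at 24 h against 6 h. The DOHH2 vehicle gave 14 to 26 at 3 h and 13 to 18 at 6 h. CSKi at 24 h against 6 h in TMD8 gave 9 to 21. The TMD8 responses minus that at 1 h gave 0 to 1 at 3 h, 0 to 3 at 6 h and 31 to 37 at 24 h, and 35 to 37 at 24 h minus 6 h. Between lines it gave 0 at 1 h, 0 to 1 at 3 h, 1 to 3 at 6 h and 38 to 39 for DMSO. A lone library left in a group is assumed to vary like the others.

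With a replicate block, 9 members were called in DOHH2 at 1 h, and no other count moved by over 1.5 times. Same-numbered libraries deviated together at over 0.1 in 0 of 15 group pairs of DOHH2 and 1 of 28 of TMD8. That pair was CSKi and DMSO at 24 h (0.17). The numbers were not taken to pair samples, although weak correlations do not exclude it. CDC25C, with 159 to 639 reads, is the member most limited by depth.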
